A study of Mus musculus with 2 samples.

Results

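Chemoattractant receptors are the cell surface proteins by which leukocytes sense chemokines, formyl peptides and lipid mediators. Their mRNA was followed here in adipose tissue macrophages (ATMs) after an overnight high-fat diet (HFD). The 8 genes were chosen by symbol from the 31053 genes in the deposited matrices: the chemokine receptor genes *Ccr1*, *Ccr2*, *Cx3cr1* and *Cxcr4*, the gene of the atypical receptor *Ccrl2*, the formyl peptide receptor genes *Fpr1* and *Fpr2*, and the leukotriene B4 receptor gene *Ltb4r1*. All 8 were found. With at least 30 unique molecular identifiers (UMIs, each marking 1 captured mRNA molecule) over both libraries as the limit for a measurement, 7 were measured in the whole of the cells, and *Fpr1* was not.

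As background, these receptors span the membrane and mostly signal through Gi proteins, which direct a leukocyte towards the source of its ligand. CCR2 and its ligand CCL2 bring classical monocytes out of the bone marrow and into inflamed tissue, whereas CX3CR1 marks patrolling monocytes and many tissue macrophages, and CXCR4 binds CXCL12 and holds leukocytes in the marrow and in tissues. Adipose tissue holds long-lived resident macrophages, often marked by TIM4 (*Timd4*), LYVE1 and FOLR2, beside macrophages that derive from monocytes, so that these receptor genes are also used to tell the origins of its macrophages apart.

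The series holds 2 libraries of droplet-based scRNA-seq of macrophages sorted as CD45+Lin-Ly6Clow/-F4/80+ from epididymal fat, where Lin includes TCRb, SiglecF and Ly6G. The mice were male, of the C57/BL6 strain and 8 to 12 weeks old, with no transgene or deletion named. Those of the control diet (CD) group stayed on a diet with 11% of its energy from fat, and those of the HFD group were given a diet with 58% of its energy from fat overnight. Each diet had 3 mice pooled into 1 library, so there was no replicate, no test between the diets was possible, and diet and library cannot be told apart. Every interval below is a 95% interval of the counting error only, and does not include the spread between cells, between mice, between sorts or between libraries.

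Cells with 200 to 3500 genes and at most 10% mitochondrial UMIs were kept, which left 2364 CD cells and 2021 HFD cells. The CD library was deeper, with 12284010 UMIs in its kept cells and a median of 4490.5 per cell, against 8086475 UMIs and a median of 2792 per cell in the HFD library. All 7 macrophage markers (*Adgre1*, *Csf1r*, *Cd68*, *Fcgr1*, *Mertk*, *C1qa* and *Itgam*) were detected in both libraries, at a sum of 5600.4 counts per 1000000 UMIs (CPM) on CD and 3412 CPM on HFD. The 7 neutrophil markers summed to 15.9 and 8.41 CPM, with *Ly6g* at 0 in both. The 4 endothelial markers summed to 12.5 and 9.65 CPM. Of the barcodes, 14 occurred in both libraries, and 10 of these were kept cells in each.

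Cells were read in 6 classes, each a gate on UMIs of genes that are not among the receptors: Timd4+, Lyve1+, Folr2+Lyve1-, *Lyz1* of at least 10 UMIs (Lyz1-high below), Plac8+, and Ccl17+ or Flt3+. The gates stand on 1 UMI except for *Lyz1*, and a cell may pass several: 77.7% of the CD and 38.9% of the HFD Timd4+ cells were also Lyve1+. In this order the classes held 368, 1172, 872, 555, 42 and 42 CD cells and 72, 415, 581, 672, 73 and 41 HFD cells. The make-up of the 2 libraries thus differed: when each cell was given to 1 class, Lyve1+ cells supplied 32.1% of the CD and 15.3% of the HFD UMIs, and Lyz1-high cells 27.7% and 47.3%. In such pooled values, more cells of a class and more mRNA per cell cannot be told apart.

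Across all kept cells, *Cxcr4*, *Ccrl2* and *Ltb4r1* were higher in the HFD library, whereas *Ccr1* and *Ccr2* were at similar levels in both. *Ccrl2* was at 94.9 CPM in the CD and 215 CPM in the HFD library, a log2 ratio of 1.18 (interval 1.07 to 1.29). *Cxcr4* was at 44.9 and 92.6 CPM (1.05, 0.89 to 1.21). *Ltb4r1* was at 76.3 and 124 CPM (0.70, 0.57 to 0.83). *Fpr2*, with 27 CD and 29 HFD UMIs, was at 2.20 and 3.59 CPM, and its interval included 0 (0.71, -0.10 to 1.52).

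A gene was counted as higher or lower when it was past 1.5-fold (0.58 on the log2 scale) with at least 30 UMIs over both groups. By this rule 4 of the 7 measured receptors were higher in HFD, beside 5.56% of the 10662 genes measured, and 0 were lower, beside 10.7% of them. This count follows a rule of size alone and no test, so *Fpr2* is among the 4 although its interval included 0. The median log2 ratio of the 7 was 0.70, and that of all 10662 genes was -0.02. With the HFD levels of the classes weighted by the shares of UMIs they had in the CD library, a setting chosen after seeing the data, the fold of *Cxcr4* was 2.06 as before, that of *Ccrl2* went from 2.27 to 1.85, and that of *Ltb4r1* from 1.62 to 1.17, which is no longer past 1.5-fold. At a mitochondrial limit of 5%, *Ltb4r1* was at 0.57 and *Fpr2* at 0.55, just under the limit of size.

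*Cxcr4*, *Ccrl2* and *Ltb4r1* were also seen in a larger share of the HFD cells. To compare shares at one depth, 1000 UMIs were drawn from every cell, with 52 CD and 267 HFD cells left out as too shallow, which left 2312 and 1754. *Ccrl2* was then seen in 5.97% (5.04 to 7.01) of the CD and 14.8% (13.2 to 16.6) of the HFD cells. Without thinning the shares were 22.2% and 32.9%. *Cxcr4* was seen in 4.89% of the thinned CD cells and 8.49% of the thinned HFD cells (16.3% and 23.2% without thinning). *Ltb4r1* was seen in 4.50% and 8.04% (16.5% and 24.1%). Level and share of cells gave the same direction for all 3, but both were read from UMIs of the same cells and are not separate support.

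For *Ccr2* the thinned shares were 31.4% and 35.6%, and for *Ccr1* 9.26% and 9.81%. Without thinning these were 56.1% and 56.0%, and 33.4% and 25.7%. A background share could not be set well, since only 7 CD cells and 1 HFD cell held at least 2 endothelial markers: in the 7 CD cells, at a median of 4714 UMIs, *Ccr2* was in 0 after thinning, for which the exact interval reaches 41.0%, and in 3 without it. None of the 8 receptors was seen in 53.9% of the thinned CD cells and 43.3% of the thinned HFD cells. Exactly 2 of them were seen in 8.22% and 14.4%.

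The 3 receptor genes that were higher in HFD with an interval above 0 are shown by their promoters, so that the letters before their start sites can be compared. The stretches run from 250 bases before to 50 bases after the start site, 5′ to 3′ on the strand of the gene, from the RefSeq annotation of GRCm38.p6. Capitals mark matches, on either strand, to the motifs named in the next paragraph. *Cxcr4* lies at chr1:128592250-128592549 on the minus strand, *Ccrl2* at chr9:111057469-111057768 on the minus strand (the most upstream of 3 listed starts) and *Ltb4r1* at chr14:55765712-55766011 on the plus strand.
Cxcr4: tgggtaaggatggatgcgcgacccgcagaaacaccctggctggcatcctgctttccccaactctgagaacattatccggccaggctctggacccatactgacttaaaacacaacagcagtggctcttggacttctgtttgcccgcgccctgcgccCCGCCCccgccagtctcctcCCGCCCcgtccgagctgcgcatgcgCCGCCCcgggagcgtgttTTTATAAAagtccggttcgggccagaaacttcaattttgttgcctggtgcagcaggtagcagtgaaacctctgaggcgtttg
Ccrl2: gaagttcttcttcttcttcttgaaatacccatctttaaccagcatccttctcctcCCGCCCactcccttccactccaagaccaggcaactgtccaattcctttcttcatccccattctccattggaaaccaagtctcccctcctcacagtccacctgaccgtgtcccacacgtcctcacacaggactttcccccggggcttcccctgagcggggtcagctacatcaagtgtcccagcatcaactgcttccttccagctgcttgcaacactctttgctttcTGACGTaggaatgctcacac
Ltb4r1: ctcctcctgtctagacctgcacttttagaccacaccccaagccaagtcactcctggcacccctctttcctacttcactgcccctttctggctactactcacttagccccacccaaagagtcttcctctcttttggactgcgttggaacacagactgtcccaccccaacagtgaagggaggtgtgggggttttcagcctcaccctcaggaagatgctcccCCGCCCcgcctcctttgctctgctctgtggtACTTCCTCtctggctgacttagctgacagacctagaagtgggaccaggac

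The GC box GGGCGG was the only motif searched that all 3 held, and 35.9% of the 27025 promoters in the table hold it too. *Cxcr4* had it at -95, -75 and -50 from the start site, *Ccrl2* at -195 and *Ltb4r1* at -31. *Cxcr4* also had overlapping TATA box letters (TATAAA, in 14.2% of all promoters) at -32 on the minus and -30 on the plus strand. *Ccrl2* had the cAMP response element half-site TGACGT (7.59% of all) at 31, and *Ltb4r1* the PU.1 motif GAGGAAGT (3.25% of all) at 1. The letters of AP-1 (TGANTCA, in 7.92% of all), C/EBP (TTGCGCAA, 0.189%), the E-box (CACGTG, 7.24%), a consensus of NF-kB (0.148%) and one of IRF (3.49%) were in none of the 8 receptor promoters. The promoters of *Ccr1*, *Ccr2* and *Cx3cr1* held no motif that was searched. A match is only a match of letters.

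**Figure D1:**
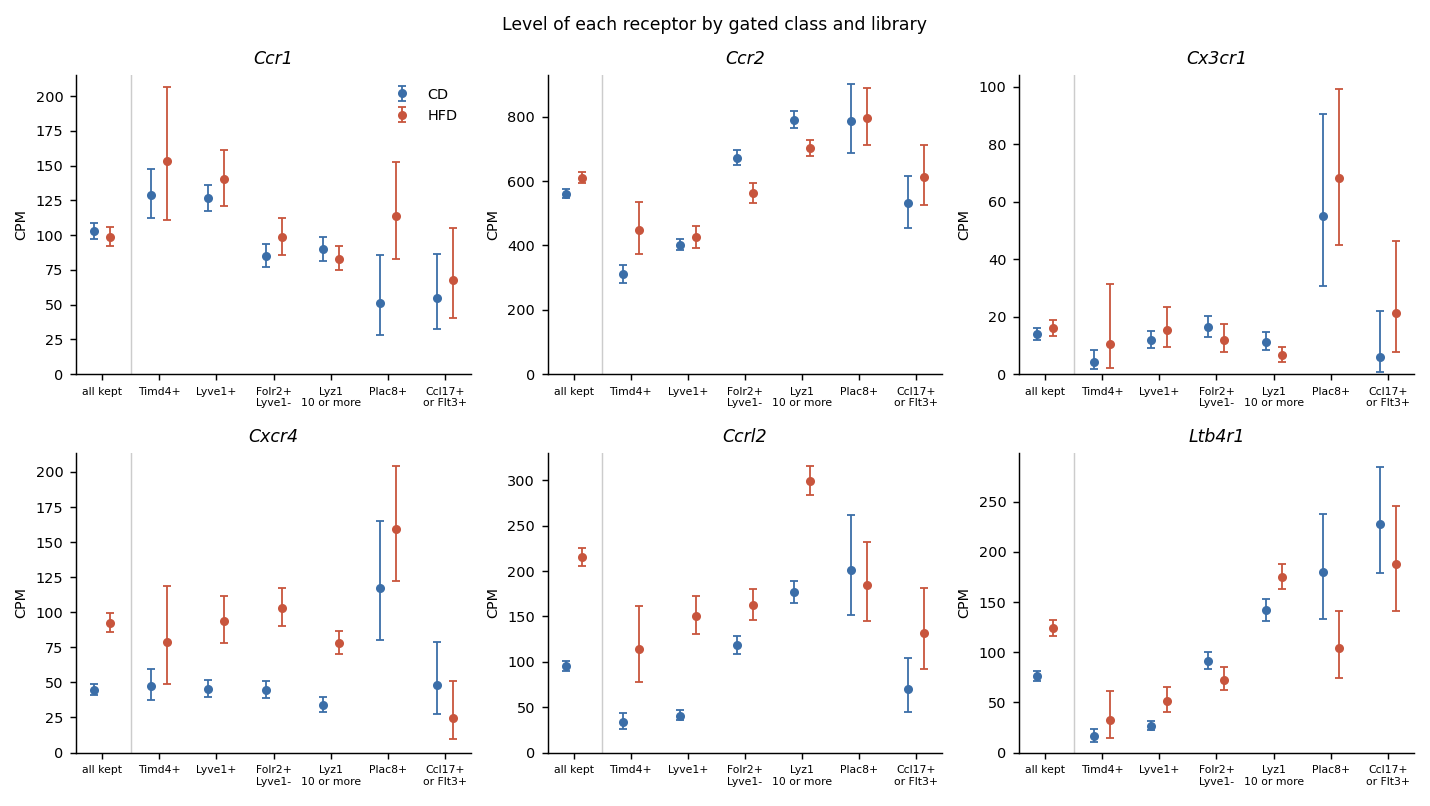
Levels in CPM (y axis, linear, from 0) of the 6 receptors with over 100 UMIs in each library, in all kept cells and in the 6 gated classes (x axis); blue points are the CD library, red points the HFD library, bars are 95% Poisson intervals of counting error. *Cxcr4* was at 34.2 to 48.5 CPM in 5 CD classes and at 117 CPM in Plac8+ cells, and *Ccr2*, *Ccrl2* and *Ltb4r1* were lowest in the CD library in Timd4+ and Lyve1+ cells.

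*Ccr2*, the receptor of CCL2 on classical monocytes and on macrophages derived from them, lies at chr9:124101950-124113557 on the plus strand of GRCm38 (GENCODE M21). In the CD library it was at 309.9 CPM (284 to 338) in Timd4+, 401 in Lyve1+, 672 in Folr2+Lyve1-, 791 in Lyz1-high, 787 in Plac8+ and 530.4 in Ccl17+ or Flt3+ cells. In the HFD library the same classes were at 449, 426, 561, 703, 797 and 614 CPM. *Ccr2* UMIs were therefore found in every class in both libraries, but not in every cell. Without thinning, 124 of 368 Timd4+, 497 of 1172 Lyve1+ and 531 of 555 Lyz1-high CD cells held at least 1. On HFD these were 28 of 72, 154 of 415 and 603 of 672. These classes differ in depth, and a background share could not be set well. As gated, the range of *Ccr2* over the classes was narrower in the HFD library, which depended on how the classes were set. Neighbours in this order were compared over cells that belong to only 1 of the pair. In the CD library Lyz1-high and Plac8+ (log2 0.04, -0.20 to 0.30), Plac8+ and Folr2+Lyve1- (0.16, -0.13 to 0.44), and Lyve1+ and Timd4+ (-0.07, -0.30 to 0.17) did not differ beyond the counting error.

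Against all other kept CD cells, *Ccr2* was lower in Timd4+ (-0.95, -1.09 to -0.83) and Lyve1+ cells (-0.77, -0.84 to -0.70) and higher in Lyz1-high cells (0.93, 0.86 to 0.999). The Lyz1-high value was 0.43 (0.11 to 0.74) when classes were set on cells thinned to 1000 UMIs, and the Lyve1+ value -0.47 (-0.55 to -0.39) with each cell in only 1 class, both within 1.5-fold. In the HFD library the Lyve1+ cells were also past 1.5-fold lower (-0.61, -0.73 to -0.48), while Timd4+ (-0.45) and Lyz1-high cells (0.53) were within it. On thinned cells the Lyve1+ value was -2.05 (-2.61 to -1.54) in HFD, against -0.82 in CD. With gates at 2 UMIs the Timd4+ value was -2.74 (-4.05 to -1.69) in HFD, against -1.22 in CD. Between the diets, *Ccr2* was within 1.5-fold in all 6 classes. Its largest log2 ratio was in Timd4+ cells (0.54, 0.24 to 0.82), from 521 CD and 126 HFD UMIs. Ratios below 0 were found in Folr2+Lyve1- (-0.26, -0.36 to -0.16) and Lyz1-high cells (-0.17, -0.24 to -0.10).

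The Timd4+ value of *Ccr2* turned on the gate. Of the Timd4+ cells, 263 of 368 in the CD and 58 of 72 in the HFD library held 1 *Timd4* UMI. In those cells *Ccr2* was at 338 CPM in the CD and 582 CPM in the HFD library, and *Lyz1* at 1452 and 2495 CPM. In the 105 CD and 14 HFD cells with 2 or more *Timd4* UMIs, *Ccr2* was at 247 CPM (206 to 294) and, from 7 UMIs, at 92.1 CPM (37.0 to 189.7), a log2 ratio of -1.43 (-2.77 to -0.34). The split by gate UMIs was made after seeing the data. Of the HFD Timd4+ cells, 7 of 72 held *Gata6* or *Serpinb2*, markers of peritoneal macrophages, against 3 of 368 CD cells, and without them the log2 ratio of *Ccr2* was 0.74.

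*Ccr1*, a receptor of CCL3, CCL5, CCL6 and CCL9 (chr9:123962124-123968692, minus strand), was, as gated, highest in Timd4+ and Lyve1+ cells in both libraries. On CD it was at 129 CPM in Timd4+, 126 in Lyve1+, 84.9 in Folr2+Lyve1-, 89.9 in Lyz1-high, 51.3 in Plac8+ and 54.6 in Ccl17+ or Flt3+ cells, and in the HFD library at 153, 140.1, 98.4, 83.1, 114 and 67.4 CPM. In the CD library the same 2 classes were the lowest for *Ccr2*. Against the other kept cells, *Ccr1* was higher in Lyve1+ cells by 0.58 (0.42 to 0.75) in the CD library, just under the limit of size, and by 0.63 (0.39 to 0.87) in the HFD library. For Timd4+ cells these values were 0.39 (0.17 to 0.60) and 0.66 (0.18 to 1.11), the latter -0.054 when classes were set on cells thinned to 1000 UMIs. On such thinned cells the HFD Lyve1+ value was 0.28 (-0.35 to 0.86). The HFD Folr2+Lyve1- value was then 0.55 (0.068 to 1.02) and the Plac8+ value 1.07 (-0.16 to 2.08). The order of the HFD classes for *Ccr1* thus turned with the way they were set. In the order of the classes, Lyve1+ cells differed from the next class, Lyz1-high, by 0.65 (0.44 to 0.85) on CD, Folr2+Lyve1- cells from Lyz1-high by 0.44 (0.13 to 0.74) on HFD, and no other neighbours differed beyond the counting error. As gated, *Ccr1* was lower than in the rest in the CD Plac8+ (-1.02) and Ccl17+ or Flt3+ cells (-0.93), on 14 and 18 UMIs. On thinned cells the CD Plac8+ value was -0.005 (-3.06 to 1.86), and the CD Folr2+Lyve1- value 0.26 (-0.13 to 0.64).

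HFD and CD were within 1.5-fold for *Ccr1* in all kept cells (-0.06, -0.19 to 0.07) and in 5 of the 6 classes. The exception was Plac8+ cells, at 51.3 CPM in the CD and 114 CPM in the HFD library (1.15, 0.26 to 2.13), from 14 and 45 UMIs. Over the 12 points of 6 classes in 2 libraries, with each cell in only 1 class, the Pearson r of *Ccr1* was -0.71 with *Ccr2* and -0.85 with *Ltb4r1*. These points share libraries and differ in depth, so these values are a description.

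*Cx3cr1*, the fractalkine receptor (chr9:119901616-120069879, minus strand), was highest in Plac8+ cells in both libraries. It was at 54.9 CPM (30.7 to 90.6) in CD and 68.3 CPM (45.0 to 99.4) in HFD Plac8+ cells, and between 4.16 and 21.3 CPM in the other classes of either library. Against the other kept cells it was higher in Plac8+ cells by 2.08 (1.21 to 2.85) and 2.36 (1.70 to 2.99). The Plac8+ cells differed from the next class by 2.15 (1.04 to 3.11) on CD and 2.42 (0.70 to 4.80) on HFD, and the other neighbours did not differ beyond the counting error. *Cx3cr1* was lower in CD Timd4+ cells (-1.89, -3.23 to -0.82) and in HFD Lyz1-high cells (-2.12, -2.76 to -1.52).

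In all kept cells *Cx3cr1* differed between the diets by less than the counting error (13.9 and 15.95 CPM, 0.20, -0.14 to 0.53). In Lyz1-high cells it was lower in HFD, at 11.1 and 6.53 CPM (-0.77, -1.47 to -0.10). Of 9 genes whose annotated span overlaps that of *Cx3cr1*, 3 are on its strand (*Gorasp1*, *Csrnp1* and *Xirp1*), and reads in shared stretches may not have been assigned.

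*Cxcr4*, the receptor of CXCL12 (chr1:128588199-128592293, minus strand), was higher in HFD in 4 of the 6 classes and differed little between most classes of a library. On CD it was at 47.6 CPM in Timd4+, 45.4 in Lyve1+, 44.5 in Folr2+Lyve1-, 34.2 in Lyz1-high, 117 in Plac8+ and 48.5 in Ccl17+ or Flt3+ cells. On HFD these values were 78.5, 93.7, 103, 78.1, 159 and 24.8 CPM. The Timd4+, Lyve1+, Folr2+Lyve1- and Lyz1-high classes thus lay between 34.2 and 47.6 CPM on CD and between 78.1 and 103 CPM on HFD. The intervals of the diets overlapped in Timd4+ cells (37.7 to 59.2 and 49.2 to 119 CPM). Over all 6 classes the levels of the diets overlapped, with CD Plac8+ cells at 117 CPM and HFD Ccl17+ or Flt3+ cells at 24.8 CPM.

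The log2 ratio of HFD over CD for *Cxcr4* was 1.21 (0.94 to 1.49) in Folr2+Lyve1-, 1.19 (0.92 to 1.47) in Lyz1-high and 1.04 (0.72 to 1.36) in Lyve1+ cells. In Timd4+ cells it was 0.72 with an interval that included 0 (-0.03 to 1.42), and with at least 2 *Timd4* UMIs, on 3 HFD UMIs, it was -0.22 with a wide interval that included 0. In Plac8+ cells it was within 1.5-fold (0.44, -0.19 to 1.11), and the Ccl17+ or Flt3+ cells held only 16 CD and 7 HFD UMIs. Plac8+ cells were the highest class in both libraries, against the other kept cells by 1.44 (0.88 to 1.95) in CD and 0.84 (0.44 to 1.21) in HFD. Of the other neighbours, Folr2+Lyve1- and Lyz1-high cells differed on CD (0.60, 0.21 to 0.998), and Lyve1+ and Timd4+ cells on HFD (1.14, 0.049 to 2.49).

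**Figure D2:**
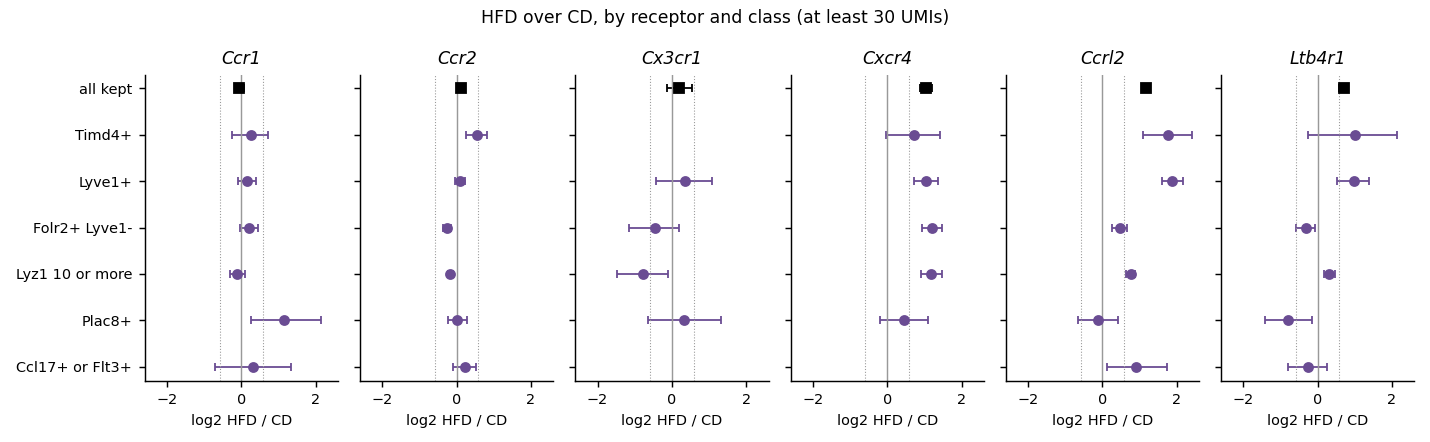
Log2 ratio of HFD over CD (x axis) for 6 receptors, in all kept cells (black squares) and in the 6 classes (purple points); bars are 95% intervals of counting error, dotted lines mark 1.5-fold, and classes with under 30 UMIs over both libraries are not drawn. *Cxcr4* is right of the dotted line in all kept cells and in 4 classes, while *Ltb4r1* lies right of it in Timd4+ and Lyve1+ cells and left of it in Plac8+ cells.

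*Ccrl2* (chr9:111054486-111057519, minus strand) encodes an atypical receptor that binds chemerin and is not known to signal for migration. On CD it was at 33.9 CPM in Timd4+, 40.8 in Lyve1+, 118 in Folr2+Lyve1-, 177 in Lyz1-high, 201 in Plac8+ and 69.7 in Ccl17+ or Flt3+ cells. The HFD values were 114, 150.3, 162, 299.7, 185 and 131 CPM. The lowest CD classes had the largest ratios: 1.88 (1.60 to 2.16) in Lyve1+ and 1.75 (1.08 to 2.40) in Timd4+ cells, then 0.91 (0.12 to 1.73) in Ccl17+ or Flt3+ and 0.76 (0.63 to 0.88) in Lyz1-high cells. Folr2+Lyve1- (0.46, 0.27 to 0.65) and Plac8+ cells (-0.12, -0.65 to 0.41) were within 1.5-fold.

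The Lyz1-high cells were higher in *Ccrl2* than the other kept cells in both libraries, by 2.04 (1.86 to 2.23) in CD and 1.52 (1.36 to 1.69) in HFD. Lyve1+ cells were lower by -1.75 (-1.97 to -1.53) and -0.61 (-0.82 to -0.39). In the order of the HFD classes Lyz1-high cells stood apart from the next class, Plac8+ (1.98, 1.32 to 2.74), and no pair of neighbours among the other 5 classes differed beyond the counting error. With at least 2 *Lyve1* UMIs (772 CD and 174 HFD cells), *Ccrl2* was at 33.5 and 78.6 CPM, and with 1 UMI (400 and 241 cells) at 55.7 and 201 CPM. With classes set on thinned cells, the log2 ratio of *Ccrl2* in Lyve1+ cells was 0.78, with an interval that included 0 (-0.51 to 1.99).

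*Ltb4r1* (chr14:55765962-55768494, plus strand) encodes BLT1, the high-affinity receptor of leukotriene B4. Its CD levels were 16.1 CPM in Timd4+, 26.4 in Lyve1+, 91.2 in Folr2+Lyve1-, 142 in Lyz1-high, 179 in Plac8+ and 227 in Ccl17+ or Flt3+ cells. Its HFD levels were 32.1, 51.6, 72.8, 175, 104 and 188 CPM. Timd4+ and Lyve1+ cells were lower than the other kept cells in both libraries, by -2.42 and -2.12 in CD and by -1.98 and -1.43 in HFD. Lyz1-high cells were higher by 2.02 (1.81 to 2.23) and 1.64 (1.41 to 1.87), and Ccl17+ or Flt3+ cells by 1.66 and 0.63 (0.20 to 1.03).

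In the order of the CD classes, Lyz1-high cells stood above Folr2+Lyve1- cells by 1.73 (1.41 to 2.06) and these above Lyve1+ cells by 1.79 (1.51 to 2.07). On HFD, Lyz1-high cells stood above Plac8+ cells by 1.80 (0.98 to 2.76). The classes next to each other at the top, Ccl17+ or Flt3+ and Plac8+ on CD (0.34, -0.20 to 0.89) and Ccl17+ or Flt3+ and Lyz1-high on HFD (0.41, -0.15 to 0.92), did not differ beyond the counting error.

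The diet ratio of *Ltb4r1*, as gated, was 0.96 (0.53 to 1.38) in Lyve1+ cells, 0.31 (0.16 to 0.46) in Lyz1-high cells, -0.33 (-0.60 to -0.06) in Folr2+Lyve1- cells and -0.79 (-1.43 to -0.16) in Plac8+ cells. Of the 49 *Ltb4r1* UMIs of the CD Plac8+ cells, 16 were in 1 cell, and the ratio without that cell was not computed. With each cell in only 1 class the Folr2+Lyve1- value was 0.15 (-0.49 to 0.76) and the Plac8+ value -0.86 (-1.53 to -0.20), so the sign in Folr2+Lyve1- cells turned with the way the class was set. In Timd4+ cells it was 0.999 on 27 and 9 UMIs, with an interval that included 0 (-0.27 to 2.13). In cells with at least 2 *Lyve1* UMIs, *Ltb4r1* was at 15.2 CPM in the CD and 15.7 CPM in the HFD library (0.046, -1.16 to 1.07), whereas in cells with 1 *Lyve1* UMI it was at 49.5 and 77.0 CPM. The HFD cells with 1 *Lyve1* UMI also held more *Lyz1*, at 4193 CPM against 2473 CPM in CD, and less *Folr2*, at 537 against 1453 CPM, and the part of these in the ratio was not tested.

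**Figure D3:**
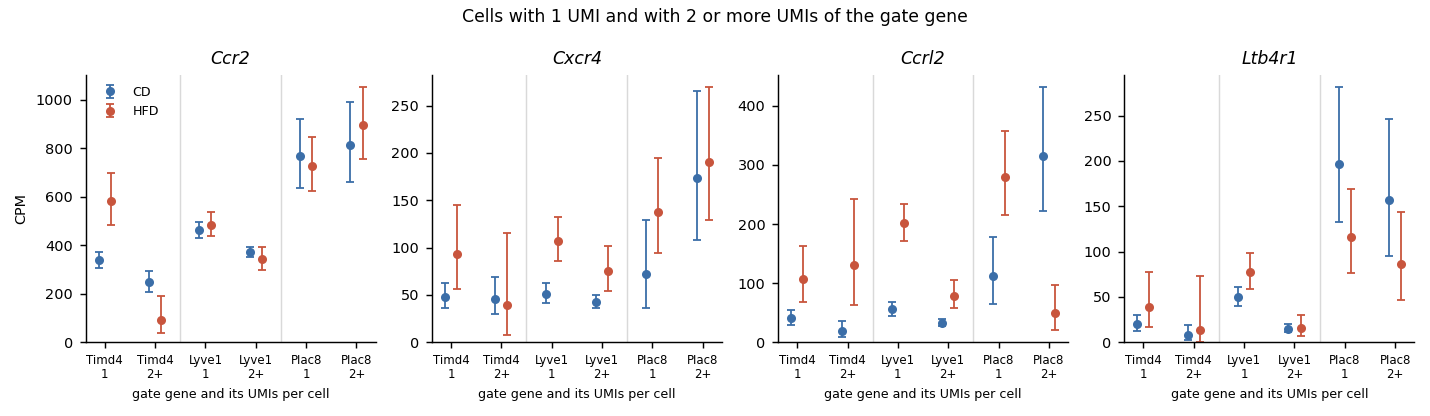
Levels in CPM (y axis, linear, from 0) of 4 receptors in cells with 1 UMI and with 2 or more UMIs (2+) of *Timd4*, *Lyve1* or *Plac8* (x axis), CD in blue and HFD in red, with 95% Poisson intervals of counting error. For *Ltb4r1* the diets lie apart in cells with 1 *Lyve1* UMI (49.5 and 77.0 CPM) and together in cells with 2 or more (15.2 and 15.7 CPM), and for *Ccr2* the *Timd4* groups differ in opposite directions.

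The formyl peptide receptors, which sense bacterial and mitochondrial peptides and are known best from neutrophils, were near the floor of detection. *Fpr1* (chr17:17876471-17883940, minus strand) had 3 UMIs in the CD and 7 in the HFD library, a log2 ratio of 1.83 (-0.31 to 4.41). *Fpr2* (chr17:17887824-17893952, plus strand), whose annotated span overlaps *Fpr3* on the same strand, had 27 and 29 UMIs. Of its UMIs, 13 in CD and 9 in HFD were in Lyve1+ cells, and 5 and 5 in Plac8+ cells, at 18.3 CPM (5.94 to 42.7) and 12.7 CPM (4.11 to 29.5). At this depth no class could be compared for *Fpr1*, and its 0 UMIs in CD Lyve1+ cells have an interval up to 0.687 CPM.

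Set against the rest of their library, Timd4+ and Lyve1+ cells were lower in several receptors and Lyz1-high and Plac8+ cells higher. Of the 6 receptors measured against the other kept cells of the CD library, Timd4+ cells were past 1.5-fold lower in 4 (*Ccr2*, *Cx3cr1*, *Ccrl2* and *Ltb4r1*, beside 8.94% of all genes measured) and higher in 0 (12.8%). Lyve1+ cells were lower in 3 (*Ccr2*, *Ccrl2* and *Ltb4r1*, 8.29%) and higher in 0 (16%). Lyz1-high cells were higher in 3, the same ones (8.08%), and lower in *Cxcr4* (26.5%, -0.59, -0.86 to -0.32), which turned to 0.071 when classes were set on cells thinned to 1000 UMIs. Plac8+ cells were higher in 4 (*Cx3cr1*, *Cxcr4*, *Ccrl2* and *Ltb4r1*, 16.8%) and lower in *Ccr1* (27.7%), which was at -0.005 on thinned cells. In these CD Plac8+ cells 1 cell held 26 of the 55 *Ccrl2* UMIs, and 1 cell held 16 of the 49 *Ltb4r1* UMIs. Ccl17+ or Flt3+ cells were higher in *Ltb4r1* (12.4%) and lower in *Ccr1* and *Cx3cr1* (34.3%), the latter on 2 UMIs with an interval that included 0. Folr2+Lyve1- cells were within 1.5-fold for all 6 (2.71% of all genes higher, 7.06% lower).

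In the HFD library, Timd4+ cells were higher in *Ccr1* (18.6% of all genes) and lower in *Cx3cr1* (on 3 UMIs, with an interval that included 0), *Ccrl2* and *Ltb4r1* (20.7%). Lyve1+ cells were higher in *Ccr1* (14.3%) and lower in *Ccr2*, *Ccrl2* and *Ltb4r1* (7.86%). Lyz1-high cells were higher in *Ccrl2* and *Ltb4r1* (6.44%) and lower in *Cx3cr1* (25.2%), and Plac8+ cells were higher in *Cx3cr1* and *Cxcr4* (11.8%) and lower in 0 (22.8%). Folr2+Lyve1- cells were lower in *Ltb4r1* (5.05%) and higher in 0 (6.8%). Ccl17+ or Flt3+ cells were higher in *Ltb4r1* (12%) and lower in *Cxcr4* and *Ccrl2* (27.8%). The median log2 ratio of all genes was itself -0.21 in CD and -0.22 in HFD Lyz1-high cells, and -0.22 and -0.13 in Ccl17+ or Flt3+ cells.

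Between the diets within a class, the receptors past 1.5-fold were as follows, beside the share of all genes in the same direction. In Timd4+ cells 3 of 5 measured were higher (*Cxcr4*, *Ccrl2* and *Ltb4r1*, 10.5%) and 0 lower (20.7%), and in Lyve1+ cells the same 3 of 6 were higher (8.46%) and 0 lower (10.3%). In Folr2+Lyve1- cells *Cxcr4* alone was higher (8.46%) and 0 were lower (7.56%). In Lyz1-high cells *Cxcr4* and *Ccrl2* were higher (6.08%) and *Cx3cr1* lower (7.26%). In Plac8+ cells *Ccr1* was higher (11.2%) and *Ltb4r1* lower (11.2%), the latter with 16 of its 49 CD UMIs in 1 cell. In Ccl17+ or Flt3+ cells *Ccrl2* was higher (11.6%) and 0 of the 4 measured were lower (10.5%).

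The values of the CD Folr2+Lyve1- class depended on how it was set. Of the CD Lyz1-high cells, 48.5% were also in it, and the part of this overlap was not tested. As gated, *Ccrl2* and *Ltb4r1* were at 0.58 (0.41 to 0.75) and 0.46 (0.27 to 0.65) against the other CD cells. With each cell in only 1 class these were -0.88 (-1.16 to -0.61) and -1.49 (-1.88 to -1.13), and with classes set on thinned cells -1.33 and -1.29, and with gates at 2 UMIs -0.22 and -0.51. *Ccr2* in these cells went from 0.47 to -0.29 (-0.48 to -0.11) on thinned cells. Between the diets, *Ccr2* in Lyve1+ cells went from 0.08 to -1.04 (-1.63 to -0.49) on thinned cells, past 1.5-fold lower. The sign of *Ccrl2* and *Ltb4r1* in the CD Folr2+Lyve1- class thus turned with the way the class was set.

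The receptors were then read along the number of *Lyz1* UMIs in cells thinned to 1000 UMIs, so that depth was the same in every cell. In the CD library the bins of 0, 1 to 2, 3 to 9 and 10 or more *Lyz1* UMIs held 1371, 472, 323 and 146 cells, and in the HFD library 663, 421, 380 and 290. *Ccrl2* was at 31.4, 61.4, 158 and 226 CPM over the CD bins and at 70.9, 157, 268 and 366 CPM over the HFD bins. *Ltb4r1* was at 16.8, 33.9, 158 and 192 CPM and at 37.7, 45.1, 126 and 272 CPM. Both were thus higher in each bin than in the one before it, in both libraries, but the intervals of several neighbouring bins overlapped. Examples are *Ltb4r1* in the first HFD bins (24.4 to 55.7 and 27.2 to 70.5 CPM) and *Ccrl2* in the last CD bins (118 to 208 and 156 to 317 CPM).

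*Ccr2* was at 371, 449, 935 and 637 CPM over the CD bins and at 404, 447, 839 and 745 CPM over the HFD bins, highest in the bin of 3 to 9 *Lyz1* UMIs. *Cxcr4* showed no such order, at 56.2, 42.4, 49.5 and 54.8 CPM in CD and 121, 92.6, 71.1 and 93.1 CPM in HFD. *Cxcr4* was higher in the HFD library in all 4 bins. Its intervals overlapped in the bins of 3 to 9 (28.3 to 80.4 and 46.8 to 103 CPM) and of 10 or more (23.7 to 108 and 61.4 to 135 CPM).

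**Figure D4:**
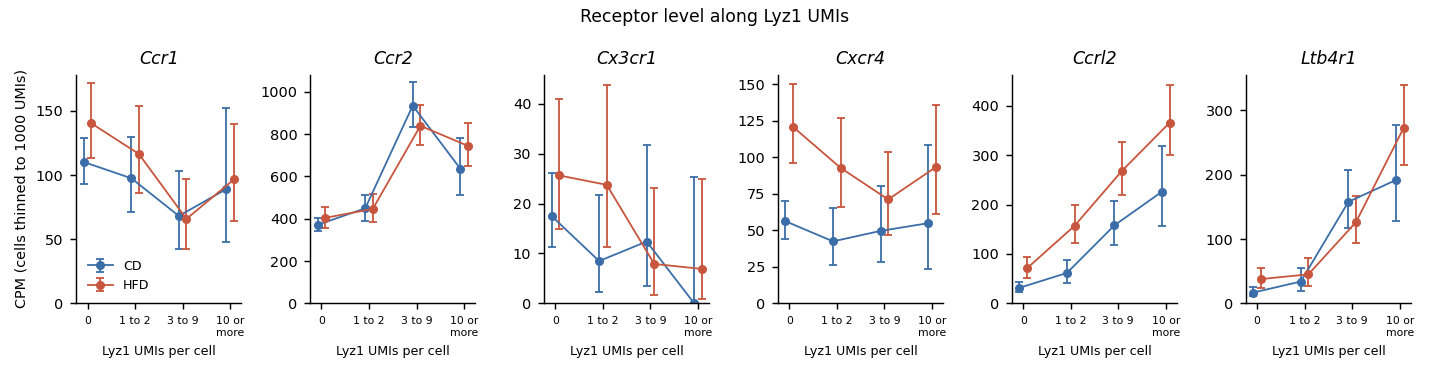
Levels in CPM (y axis, linear, from 0) of 6 receptors in cells thinned to 1000 UMIs, by the number of *Lyz1* UMIs per cell (x axis), CD in blue and HFD in red, with 95% Poisson intervals of counting error. *Ccrl2* goes from 31.4 to 226 CPM in CD and from 70.9 to 366 CPM in HFD. *Cxcr4* is higher in HFD in each bin, with overlapping intervals in the bins of 3 to 9 and of 10 or more.

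Along *Folr2*, a marker gene of resident macrophages, *Ccr2*, *Ccrl2* and *Ltb4r1* were lower in cells with 1 to 2 UMIs than in cells with 0 in both libraries, and lower again in the CD cells with 3 to 9. The CD cells with 0, 1 to 2 and 3 to 9 *Folr2* UMIs numbered 888, 897 and 525. In them *Ccr2* was at 651, 474 and 215 CPM, *Ccrl2* at 126, 39.0 and 17.1 CPM, and *Ltb4r1* at 106, 26.8 and 0 CPM. The interval of these 0 UMIs reaches 7.03 CPM. In the HFD library (1254, 413 and 87 cells) *Ccr2* was at 663, 337 and 241 CPM and *Ccrl2* at 238, 50.8 and 23.0 CPM. There *Ltb4r1* was at 129, 21.8 and 0 CPM, the last with an interval up to 42.4 CPM. In the last HFD bin, on 21, 2 and 0 UMIs, a difference from the bin before was not detectable at this depth. *Cxcr4* was at 54.1, 59.1 and 38.1 CPM over the CD bins and at 100.5, 99.3 and 69.0 CPM over the HFD bins, the last on 6 UMIs with an interval of 25.3 to 150.1 CPM. Along *Lyve1*, *Ccr2* in the CD library was at 547, 305 and 333 CPM in cells with 0, 1 to 2 and 3 to 9 UMIs. The last of these, on 25 UMIs (216 to 492 CPM), overlapped the bin before it (261 to 355 CPM). In the HFD library *Ccr2* was at 622, 154 and 83.3 CPM, the last on 1 UMI. The level of *Ltb4r1* at 0 in the 547 CD cells with 1 to 2 *Lyve1* UMIs has an interval up to 6.74 CPM.

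When thinned cells were divided by *Folr2* and *Ccr2* together, Folr2+Ccr2- cells made up 46.5% of the CD (44.5 to 48.6) and 22.4% of the HFD cells (20.5 to 24.4), and Folr2-Ccr2+ cells 16.3% (14.8 to 17.9) and 29.5% (27.3 to 31.7). Cells with both were 15.1% and 6.10%. *Ltb4r1* was at 13.01 CPM in CD and 15.3 CPM in HFD Folr2+Ccr2- cells, and at 122 and 159 CPM in Folr2-Ccr2+ cells. *Cxcr4* was at 48.3 and 109 CPM in Folr2+Ccr2- cells and at 63.7 and 104 CPM in Folr2-Ccr2+ cells. *Ltb4r1* thus differed more between Folr2+Ccr2- and Folr2-Ccr2+ cells than between the diets. *Cxcr4* was higher in the HFD library in both, with overlapping intervals in Folr2-Ccr2+ cells (40.8 to 94.7 and 78.5 to 136 CPM). In cells with neither gene *Cxcr4* was at 47.0 and 97.7 CPM. In cells with both it was lower in HFD, at 60.3 CPM (37.4 to 92.2) in CD and 37.4 CPM (10.2 to 95.7), on 4 UMIs, in HFD.

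Receptors of the same cell were counted in thinned cells, beside the number that their separate shares would give. *Ccrl2* and *Ltb4r1* were together in 19 CD cells against 6.21, and in 38 HFD cells against 20.9. *Ccr2* and *Ltb4r1* were together in 51 CD cells against 32.6, and in 70 HFD cells against 50.2. *Cxcr4* and *Ltb4r1* were together in 2 CD cells against 5.08, and in 6 HFD cells against 11.98. *Ccr1* and *Ccr2*, with 67 cells against 67.1 in CD and 61 against 61.2 in HFD, were together about as often as their shares give.

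In the Plac8+ cells 5 monocyte markers, without the gate gene, summed to 637 CPM in CD and 387 CPM in HFD, against 18.7 and 27.8 CPM in all kept cells. These cells were not uniform. *Ly6c2*, which marks classical monocytes, was in 9 of the 42 CD and 12 of the 73 HFD cells, and *Ace* or *Treml4*, used as markers of non-classical monocytes, in 8 and 13. These groups were not apart: *Ly6c2* was in 2 of the 8 CD and 4 of the 13 HFD cells with *Ace* or *Treml4*. It was at 413 CPM in them against 482 CPM in the other CD cells, and at 314 against 133 CPM on HFD. The cells with *Ace* or *Treml4* are therefore not named non-classical here. In the 8 CD cells with *Ace* or *Treml4*, *Ccr2* was at 103 CPM (28.1 to 264) against 900.4 CPM (783 to 1030.4) in the other 34. In the 13 HFD cells it was at 770.1 CPM (569.7 to 1018) against 802 CPM in the other 60. This division of so few cells thus gave a low *Ccr2* only in the CD library, on 4 UMIs.

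*Cxcr4* was at 284 CPM (142 to 508) in CD and 267 CPM (156 to 428) in HFD Plac8+ cells with *Ace* or *Treml4*, against 89.6 and 139 CPM in the others. *Ltb4r1* was at 25.8 and 31.4 CPM in them, on 1 and 2 UMIs, against 205 and 118 CPM. *Ccrl2* was at 51.6 and 62.9 CPM against 226 and 208 CPM. By the number of *Plac8* UMIs, a split made after seeing the data, *Ccrl2* was at 315 CPM (223 to 432) in the 19 CD cells and 49.0 CPM (21.2 to 96.6) in the 32 HFD cells with 2 or more, a log2 ratio of -2.68 (-3.99 to -1.56), and at 112 and 280.1 CPM in the 23 and 41 cells with 1. Of the 38 *Ccrl2* UMIs of the 19 CD cells, 26 were in 1 cell, a spread that the intervals do not include.

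The barcodes over the mitochondrial limit gave a further reading of the diets on other barcodes of the same libraries. In 2043 CD and 1120 HFD barcodes over the limit and within the gene limits, *Ccrl2* was at 61.5 and 146 CPM (1.25, 0.90 to 1.60), *Ltb4r1* at 33.0 and 58.3 CPM (0.82, 0.30 to 1.34) and *Cxcr4* at 75.7 and 117 CPM (0.62, 0.27 to 0.98). *Ccr2*, at 244 and 342 CPM (0.49, 0.29 to 0.69), was within 1.5-fold. The 3 receptors that were higher in kept HFD cells were thus also higher in these barcodes.

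By the likeness of the class profile over the 12 points (log2 of CPM + 10, among genes with at least 200 UMIs in each library), the gene most like *Ltb4r1* was *Ahcyl2* (r 0.97), followed by *Rpl13* and *Pgam1*. For *Ccrl2* they were *Adssl1* (r 0.95), *Plaur* and *Samsn1*, for *Cxcr4* *Por* (r 0.93), *Cstb* and *Sat1*, and for *Ccr2* *Lsr* (r 0.95), *Ptpn7* and *Clec4a2*. For *Ccr1* they were *Ctnnd1* (r 0.95), *2900097C17Rik* and *Itsn2*, and for *Cx3cr1* *Atf1* (r 0.93) was the first. Each is from the top 3 of 4249 or 4250 genes over points that share libraries and depth. Among the receptors themselves, *Ccr2* went with *Ltb4r1* (r 0.80) and *Ccrl2* (r 0.74), and *Cxcr4* with none of *Ccr1*, *Ccr2*, *Ccrl2* and *Ltb4r1* (r -0.11 to 0.27).

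Other chemoattractant receptors were read from a list of 34, of which 15 had 0 UMIs in both libraries. In HFD 3 of the 10 measured were lower, beside 10.7% of all genes measured: *S1pr1*, the receptor of sphingosine 1-phosphate (41.5 and 25.7 CPM, -0.69), *Gpr183*, an oxysterol receptor (38.4 and 22.6 CPM, -0.76), and, named after its values were seen, *Cxcr3*, on 39 and 8 UMIs (-1.68). Within classes, *Gpr183* was at -0.20 in Lyve1+, 0.043 in Folr2+Lyve1- and -0.46 in Timd4+ cells, all with intervals that included 0, and at -0.59 (-1.60 to 0.37) in Lyz1-high cells. *S1pr1* was at -0.22 in Lyve1+ and -0.090 in Timd4+ cells, at 0.50 (0.076 to 0.92) in Folr2+Lyve1- cells and at -0.73 (-1.45 to -0.047) in Lyz1-high cells. The lower pooled values of both genes were thus not seen at that size in the Lyve1+ and Folr2+Lyve1- classes. In Timd4+ cells the HFD library held 11 UMIs of *Gpr183* and 21 of *S1pr1*. There the intervals (-1.52 to 0.44 and -0.83 to 0.58) included the pooled values as well as 0, so this class could not decide it. The 5 T or NK cell markers, cells in which *Cxcr3* is well known, summed to 2.69 CPM on CD and 0.124 CPM on HFD, with *Cd3e* at 0 in both, and their part was not tested. The complement receptor genes *C5ar1* (369.8 and 441 CPM, 0.26) and *C3ar1* (188 and 165 CPM, -0.19), the chemerin receptor gene *Cmklr1* (70.9 and 55.3 CPM, -0.36), *Ptafr* (-0.073), *C5ar2* (-0.25) and, named after its values were seen, *Ccr7* (-0.28) were within 1.5-fold. Within classes, *C5ar1* was higher in HFD in Folr2+Lyve1- (0.94, 0.84 to 1.04), Plac8+ (1.11, 0.65 to 1.59) and Ccl17+ or Flt3+ cells (1.12, 0.45 to 1.83). Of the 162 *C5ar1* UMIs of the HFD Plac8+ cells, 31 were in 1 cell. The Ccl17+ or Flt3+ value rests on 29 CD and 54 HFD UMIs. These values were not computed with each cell in only 1 class. *C5ar1* was distributed over the classes unlike *Ccr2*: in the CD library it was higher in Lyve1+ (0.92, 503 CPM) and lower in Lyz1-high cells (-1.82, 145 CPM). *Cmklr1* went the same way as *C5ar1*, at 96.3 CPM in Lyve1+ and 38.9 CPM in Lyz1-high CD cells, whereas *Ccrl2*, which shares its ligand, was at 40.8 and 177 CPM in these classes.

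Among the 18 genes of ligands and their enzymes, 16 were measured, of which 3 were higher (5.56% of all genes) and 7 lower (10.7%) in HFD (median -0.30). *Ccl8* was at 281 CPM in CD and 26.1 CPM in HFD (-3.43, -3.63 to -3.23), and *Ccl5* at 23.8 and 3.46 CPM (-2.78). *Cxcl12*, the ligand of CXCR4, was at 78.1 and 33.3 CPM (-1.23, -1.43 to -1.03) and so opposite to its receptor gene in all kept cells. Within classes it was at -0.75 (-1.09 to -0.44) in Lyve1+ and -0.71 (-1.13 to -0.29) in Lyz1-high cells. In Timd4+ (-0.39) and Folr2+Lyve1- cells (-0.29) its interval included 0, and the Plac8+ and the Ccl17+ or Flt3+ cells held under 30 UMIs. *Alox5*, which begins leukotriene synthesis, was at 88.3 and 40.1 CPM (-1.14, -1.32 to -0.96) while *Ltb4r1* was higher, and *Lta4h* (39.1 and 37.7 CPM, -0.051) and *Alox5ap* (888 and 883 CPM) were within 1.5-fold.

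The CCR2 ligand genes *Ccl7* (1155 and 584 CPM, -0.98) and *Ccl12* (81.7 and 47.2 CPM, -0.79) were lower, and *Ccl2* (1331 and 912.5 CPM, -0.54) was within 1.5-fold. Within classes *Ccl12* was at -0.084 in Lyve1+, -0.057 in Folr2+Lyve1- and -0.31 in Timd4+ cells, all with intervals that included 0, and at -1.42 (-2.03 to -0.84) in Lyz1-high cells, while *Ccl7* was below 0 in all 6 classes, from -1.37 in Plac8+ to -0.38 in Folr2+Lyve1- cells. *Rarres2*, which encodes chemerin, was lower on 36 and 6 UMIs (-1.98) and is named after its values were seen. *Saa3*, whose product is a ligand reported for FPR2, was higher, at 18.7 and 119 CPM (2.67, 2.46 to 2.88), and in Timd4+ cells at 109 and 1583 CPM. In these Timd4+ cells the 3 peritoneal markers also differed, at a sum of 36.3 CPM in CD and 296 CPM in HFD, and their part was not tested. Of the CCR1 ligand genes named above, *Ccl9* (1847 and 2860 CPM, 0.63) and *Ccl3* (81.4 and 123 CPM, 0.59) were higher. *Ccl5* was lower (-2.78), and *Ccl6* (0.50) was within 1.5-fold. *Ccl4* (0.21) and *Anxa1* (0.36), whose product binds formyl peptide receptors, were also within 1.5-fold.

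**Figure D5:**
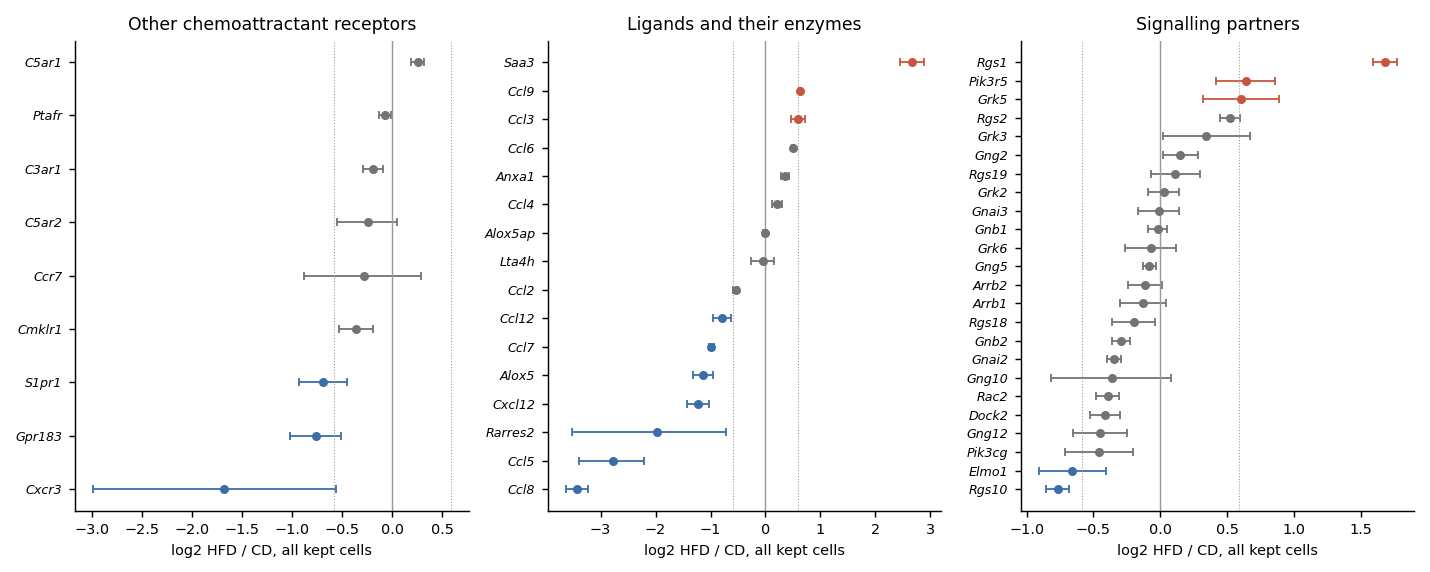
Log2 ratio of HFD over CD in all kept cells (x axis) for genes of 3 lists: other chemoattractant receptors, ligands and their enzymes, and signalling partners; bars are 95% intervals of counting error, dotted lines mark 1.5-fold, red is past it higher, blue past it lower and grey within it. *Ccl8* (-3.43) and *Saa3* (2.67) lie at the ends of the ligands, and *Rgs1* (1.68) is the farthest of the signalling partners.

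All 24 signalling partners of these receptors on the list were measured, and 3 were higher (5.56% of all genes) and 2 lower (10.7%), the latter a share near that of all genes (median -0.10). *Rgs1*, which ends Gi signalling downstream of chemokine receptors, was at 125 CPM in CD and 401 CPM in HFD (1.68, 1.59 to 1.77). It was higher in HFD in all 6 classes, from 0.92 in Plac8+ to 2.27 in Lyve1+ cells. *Pik3r5*, a regulatory subunit of PI3K gamma, was at 26.9 and 41.8 CPM (0.64), and *Grk5*, a receptor kinase, at 17.3 and 26.3 CPM (0.60). *Rgs10* (315 and 185 CPM, -0.77) and *Elmo1* (37.0 and 23.5 CPM, -0.66) were lower. The other 19, among them the Gi subunit genes *Gnai2* (-0.35) and *Gnai3* (71.7 and 71.2 CPM), the arrestin genes *Arrb1* (-0.13) and *Arrb2* (-0.11) and *Dock2* (-0.41), were within 1.5-fold.

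The genes of tissue dissociation, which can change expression during digestion and sorting, were at similar sums in both libraries, at 16980 CPM in CD and 16916 CPM in HFD for 10 genes. By class they ranged from 12107 CPM in CD Ccl17+ or Flt3+ cells to 20701 CPM in HFD Lyve1+ cells. Their part in the values above was not tested.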

How the data were processed

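The deposited files hold counts, the UMIs of each gene in each barcode, in 1 sparse matrix per diet, which the authors made with the 10x Single Cell 3′ kit and Cell Ranger 3.0.2 on mm10 (Ensembl 93, per the methods of the study). The values are whole numbers without normalization, from barcodes that Cell Ranger called as cells. All receptors and gene lists were chosen with earlier results of these data known.

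UMIs of the cells of a group were summed in Python 3.11.15 with numpy 2.4.6 and scipy 1.17.1, divided by the total UMIs of the same cells and scaled to 1000000 (CPM) with exact Poisson intervals. Log2 ratios had exact conditional binomial intervals and shares exact Clopper-Pearson intervals, all at 95%. These cover counting error only, as the 1 library per diet gives no replicate and no p-value. A gene was counted at 1.5-fold with at least 30 UMIs over both groups, and the same rule was run on all genes. Classes were compared with the other kept cells of their library. The named genes were all 8 receptors and the list genes with at least 100 UMIs in either library. Doublets were kept, since the score of scanpy 1.11.5 called 2 barcodes in each library by its own threshold; in an alternative, the 106 CD and 65 HFD kept cells with the highest scores, at the rate the loading leads to, were removed. The scripts were tested on simulated counts. For cells, the alternatives were mitochondrial limits of 5% and 20%, at least 1000 genes, and no upper gene limit. Cells with high doublet scores, or with barcodes in both libraries, were also left out in turn. For levels they were median-of-ratios scaling, mean CPM of single cells, cells thinned to 1000 UMIs, and totals without mitochondrial, ribosomal and top 50 genes. For classes they were each cell in 1 class, gates at 2 UMIs, the CD class mix, and Timd4+ cells without *Gata6* or *Serpinb2*. Some items of the gene lists are not reported here.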

Additional observations from a re-analysis of the deposited data

Results flagged for a closer look

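In 6 cases a receptor had intervals on opposite sides of 0 between the diets in 2 classes, and the difference between the classes was not tested, since each diet had 1 library. For *Ccr2* the log2 ratio of HFD over CD was 0.54 in Timd4+ cells, against -0.26 in Folr2+Lyve1- cells and -0.17 in Lyz1-high cells. For *Ltb4r1* it was 0.96 in Lyve1+ and 0.31 in Lyz1-high cells, each against -0.33 in Folr2+Lyve1- cells and -0.79 in Plac8+ cells. Of these, the Timd4+ value of *Ccr2* was -1.43 with gates at 2 UMIs, and the Folr2+Lyve1- value of *Ltb4r1* was 0.15 (-0.49 to 0.76) with each cell in 1 class. The Lyve1+ value of *Ltb4r1* was 0.046 (-1.16 to 1.07) with gates at 2 UMIs, and its Plac8+ value had 16 of its 49 CD UMIs in 1 cell. The classes of a library were sequenced together and differ in depth, with medians of 2299 UMIs in HFD Lyve1+ cells and 4691 UMIs in HFD Plac8+ cells.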

How the results depend on the processing

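No paired analysis was possible because each diet had 1 library. Over the log2 ratios between the diets, 534 of 574 alternative values stayed within the counting interval of the reported value, 39 moved outside it and 1, reported past the limit of size, changed sign. Of the class values against the other kept cells this was 869, 125 and 2 of 996, and of the shares 74 of 224 stayed. The shares were varied in depth alone, by thinning to 500 UMIs or by no thinning. A share of cells changes with depth by itself, so its count does not measure the effect of the other settings. Of the receptors higher in HFD in all kept cells, 2 rather than 4 passed at a mitochondrial limit of 5% and also 2 at a limit of 2-fold. The count of class values past 1.5-fold lower, 21 over both libraries, was 34 without the minimum of 30 UMIs and 11 at 2-fold. Of the values reported past the limit of size, those that changed sign were *Cxcr4* between the diets in Timd4+ cells with gates at 2 UMIs (-0.22), *Ccr1* in HFD Timd4+ cells (-0.054) and *Cxcr4* in CD Lyz1-high cells (0.071), the last 2 with classes set on cells thinned to 1000 UMIs. Over all diet ratios, within the limit or past it, 25 of 574 alternative values had the other sign, and 2 of these had an interval clear of 0: *Ccr2* in Timd4+ cells with gates at 2 UMIs (0.54 to -1.43) and in Lyve1+ cells with classes set on thinned cells (0.08 to -1.04). Of the class values 70 of 996 had the other sign, 10 with an interval clear of 0. In 7 of these 10 the reported interval was also clear of 0, and all 7 were *Ccr2*, *Ccrl2* or *Ltb4r1* in CD Folr2+Lyve1- cells. The causes were not tested. In all kept cells the log2 ratios ranged over the alternatives from 0.91 to 1.19 for *Cxcr4*, from 0.89 to 1.44 for *Ccrl2* and from 0.23 to 0.93 for *Ltb4r1*. With gates at 2 UMIs and with the CD class mix, both chosen after seeing the data, the values are in the report. The removal of cells with *Gata6* or *Serpinb2* was also not planned beforehand, and its value for *Ccr2* is given above. The 42 CD and 73 HFD Plac8+ cells and the 42 and 41 Ccl17+ or Flt3+ cells limit the depth of their values, as do the 14 HFD cells with 2 or more *Timd4* UMIs.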
